A study of Helianthus annuus with 142 samples.

Results

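Among the nuclear gene models of sunflower, Helianthus annuus, 161 were nearly silent in well-watered leaves and switched on in leaves of droughted plants. They were chosen by measured values: the mean level over all control plants was under 1 CPM (the gene's counts per 1000000 counts of that library), and log2((stressed mean + 0.5)/(control mean + 0.5)) was at least 3. The rule found these 161 genes among the 57891 gene models whose identifiers start with HanXRQChr, which is 0.278% of them. Because the drought difference chose the genes, it is given below as a description, with no test; the tests concern differences among genotypes within the stressed plants.

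The leaves came from 24 genotypes, 8 lines and 16 hybrids, each under 2 levels of water supply. A hybrid's name joins SF193, SF109, SF092 or SF009 with 1 of the lines SF279, SF317, SF326 and SF342, in that order, and every such pair is present; seed and pollen parents are not told apart in the labels. Per the labels, control plants had a fraction of transpirable soil water of 1 and stressed plants a fraction of 0.1. For genotype the labels give only a cultivar name, and they list no transgene or other agent. Each of the 48 groups of genotype and water supply had 3 plants, 1 per library, except the SF342 control group, which had 1, giving 70 control and 72 stressed libraries. Total counts ran from 2791984 to 13765563 per library, with a median of 6512920 in stressed lines and 7085795 in stressed hybrids.

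Plants meet a falling water supply with a hormone response, led by abscisic acid, that closes stomata and turns on genes in the leaf. Genes of this kind that are silent in watered leaves are known, in plants at large, to include those for late embryogenesis abundant proteins, otherwise made in drying seeds, and for enzymes and transporters that build up compatible solutes. The files give only identifiers, and 0 of them matched a table of 83308 named sunflower genes, so no member has a name or a role here, and the leaf label was not checked against marker genes. In whole leaves, a switch in every cell and a switch in a few cells cannot be told apart.

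Each library was compared with the genotype means over 2000 genes that are not members, and all but 3 were closest to their own label. These genes were those whose means varied most among the labelled genotypes, the compared library included. The choice of genes thus favours agreement with the labels. The library labelled SF326 stress replicate 3 was closest to SF092_SF317 (r = 0.903, against −0.14 with its own label), and the library labelled SF092_SF317 stress replicate 3 was closest to SF326 (r = 0.963, against −0.13). The library labelled SF009_SF279 control replicate 1 was closest to SF009 (r = 0.575, against 0.236). The libraries of SF009 were closest to their own label, but less close to it than most others were. Their r was 0.587, 0.854 and 0.573 in stressed replicates 1, 2 and 3, and 0.855, 0.555 and 0.645 in the control replicates. The main results on stressed plants were computed again without the first 2 of these libraries, called the mismatched libraries below. A second alternative, called without the libraries in doubt, also leaves out the lines SF009 and SF092, which earlier results of these data put in doubt. In the comparison given here all libraries of SF092 were closest to their own label, with r from 0.937 to 0.971. The doubt on SF092 therefore does not come from this comparison.

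The members were near 0 in watered leaves. Their control mean ran from 0.0015 to 0.982 CPM with a median of 0.227, and their stressed mean from 3.61 to 273.9 CPM with a median of 14.0. The median of the stressed over control ratio was 72.3, with a range from 14.6 to 3973, and the log2 ratio with the added 0.5 CPM ran from 3.00 to 8.19. A member is called on in a plant at 1 CPM or more. Of the 161, 50 were on in no control plant, and the median member was on in 2 of 70 control plants and in 61 of 72 stressed plants. None was without a count in every control plant, and a control plant had no count for 11 to 108 members, with a median of 69.5, so silence here means very few reads rather than none.

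The genes nearest to the thresholds show how the set is bounded. HanXRQChr15g0464151, at 0.352 CPM in control and 6.33 CPM in stressed plants, was just inside the fold threshold, and HanXRQChr15g0467741, at 0.527 and 7.71 CPM, was just outside it. HanXRQChr01g0000801, at 0.982 CPM in control and 19.2 CPM in stressed plants, was just inside the limit on the control level, and HanXRQChr09g0273001, at 1.03 and 17.6 CPM, was just outside. A further 175 genes passed the fold threshold with a control mean of at least 1 CPM; these are called the expressed genes that rose.

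The switch was shared across the genotypes. In 124 members the mean was higher under stress than in control plants in all 24 genotypes, and in 153 it was higher in at least 22. For the 23 genotypes with 3 plants on each side, the 3 stressed plants all stood above the 3 control plants in 19 genotypes for the median member. This held in at least 20 of the 23 genotypes for 76 members, against 3.64% of all genes with counts, and in all 23 for 13 members; since the rule used this contrast, nothing is read from that gap. At the other end, 29 members had no count at all in the stressed plants of 1 or more genotypes, 7 of them in 3 or more.

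**Figure D1:**
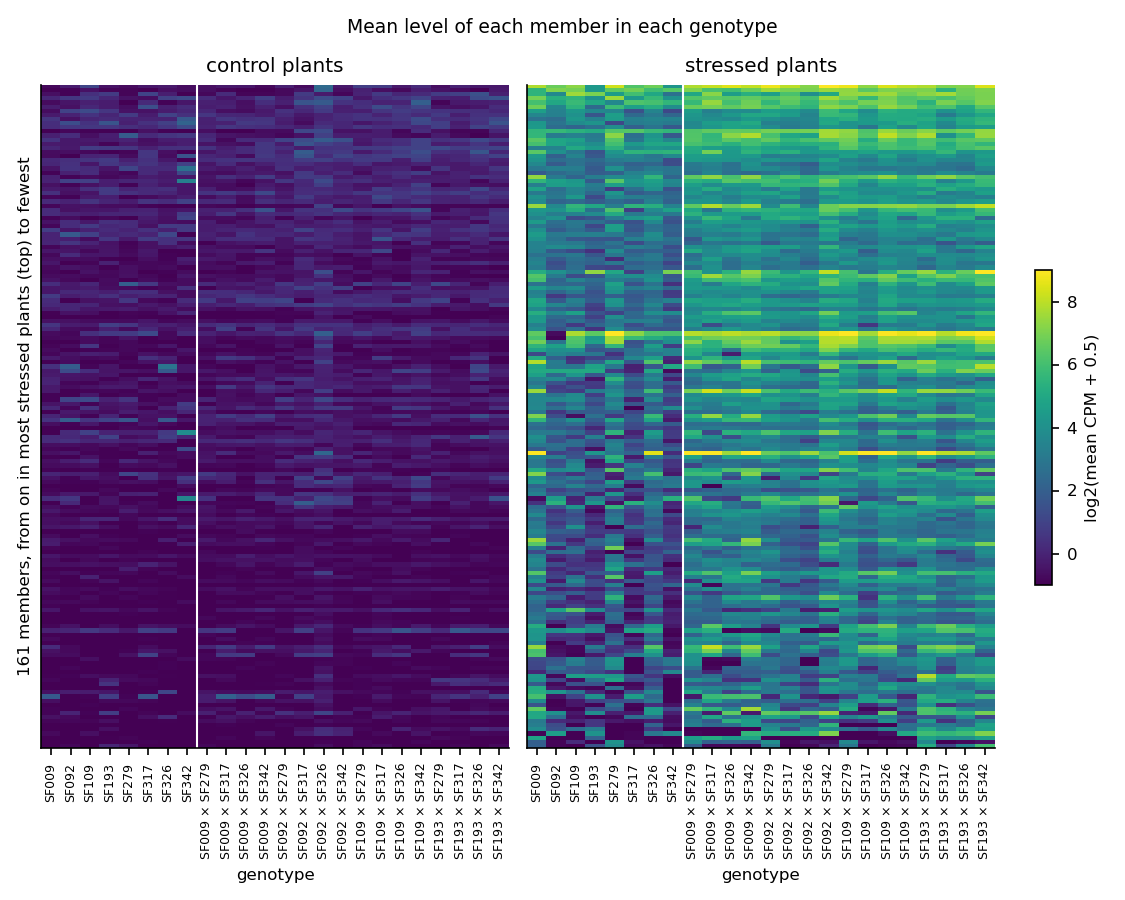
Mean level of each of the 161 members (rows) in each of the 24 genotypes (columns, lines left of the white line), in control plants on the left and stressed plants on the right, as log2(mean CPM + 0.5). Control columns are dark throughout, stressed hybrid columns are bright for most rows, stressed line columns are dimmer, and the rows at the bottom, on in the fewest stressed plants, have dark blocks in some genotypes.

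The number of members on in a plant separated nearly all stressed from control plants. Stressed plants had from 40 to 161 members on, with a median of 150, and control plants from 4 to 62, with a median of 11. In 66 of the 70 control plants no more than 25 were on. The exception that reached into the stressed range was SF092_SF326 control replicate 1 with 62 members on, and 3 stressed plants had fewer than that. These were SF193 replicates 1 and 2, with 56 and 40 on, and SF279 replicate 2, with 46, all plants of lines.

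Stressed hybrid plants had more of the members on than stressed line plants, which differed widely from plant to plant. The median was 153 members on in the 48 stressed hybrid plants, with a range from 65 to 161, and 106 in the 24 stressed line plants, with a range from 40 to 153. At least 145 members were on in 41 of 48 hybrid plants and in 4 of 24 line plants. The 4 line plants were SF009 replicates 1 and 3, with 151 and 153, SF193 replicate 3, with 147, and the library labelled SF326 replicate 3, with 151, which matched a hybrid. They were listed after their values were seen. Without the mismatched libraries the medians were 153 and 105. Of the stressed plants behind the rule's mean, 48 were hybrids and 24 lines, and 98 of the members pass the rule on lines alone against 156 on hybrids alone. Of the 118 genes that pass it on lines alone, a median of 112 were on in hybrid plants and 88 in line plants; over all 57891 gene models the medians were 27092.5 and 27004, which is 46.8% and 46.6%.

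Plants of 1 line stood far apart. The 3 stressed plants of SF193 had 56, 40 and 147 members on, those of SF279 had 46 and 118 in replicates 2 and 3 and more in replicate 1, and those of SF109 had 76, 138 and 124. SF009 was the line with the highest counts, at 151, 135 and 153, and SF317 the most even, at 105, 115 and 96. SF092 had 103, 78 and 141, SF326 had 91, 107 and 151, and SF342 had 71, 105 and 101. All lines but SF009 had at least 1 plant at or under 96. The range of SF009 lay above those of SF317 and SF342 and overlapped those of the other lines. For SF326 the overlap rested only on the library labelled replicate 3, at 151, which matched a hybrid.

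In the number of members on, hybrids were even, apart from single plants. Levels were less even: the members took 1.006%, 0.349% and 0.802% of counts in stressed replicates 1, 2 and 3 of SF193_SF279. The hybrids of SF193 were the fullest, with 156 to 161 members on in their 12 stressed plants, and SF193_SF279 had 161, 158 and 161. In hybrids, 6 plants had fewer than 120 on: 65 in SF009_SF326 replicate 1, 69 in SF109_SF317 replicate 1, 79 in SF092_SF326 replicate 2, 93 in the library labelled SF092_SF317 replicate 3, which matched the line SF326, 106 in SF092_SF279 replicate 1 and 119 in SF109_SF342 replicate 3. The other plants of the same hybrids had from 141 to 158.

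**Figure D2:**
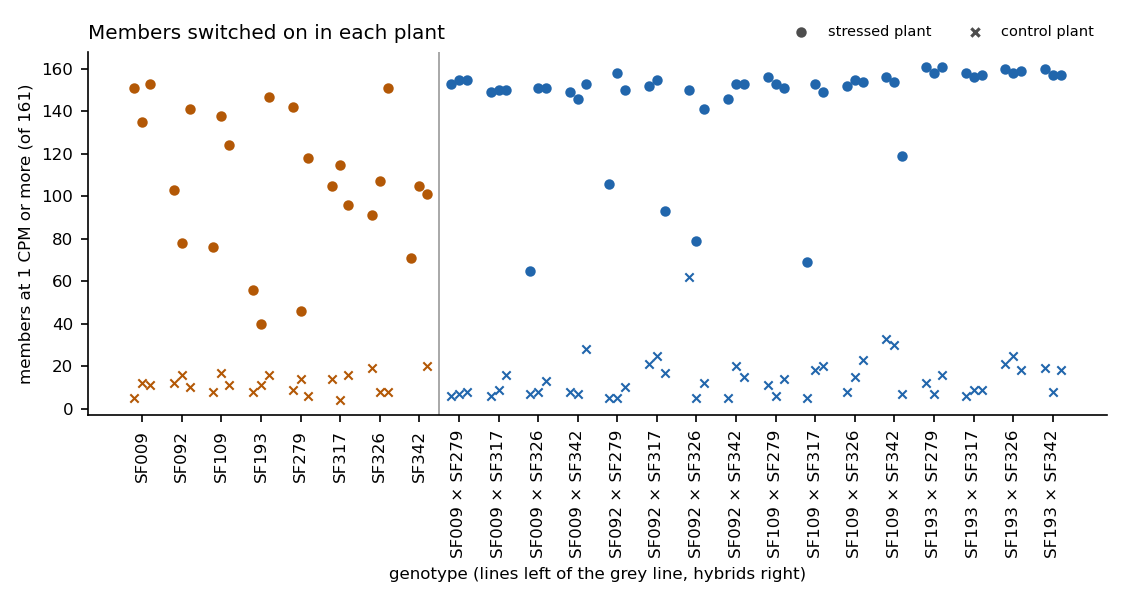
Number of the 161 members at 1 CPM or more in each plant (y axis) by genotype (x axis, lines in orange, hybrids in blue); dots are stressed plants and crosses are control plants. Stressed hybrid plants form a band near the top with 6 plants under 120, stressed line plants are spread from 40 to 153, and control plants lie at the bottom, with 1 hybrid plant at 62.

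As a share of all counts, the members together took a median of 0.00465% in control plants and 0.482% in stressed plants. Under stress the share was 0.555% ± 0.166 in hybrids (SD, n = 16 genotype means) and 0.240% ± 0.159 in lines (SD, n = 8); without the mismatched libraries it was 0.563% ± 0.158 and 0.220% ± 0.167. Genotype means ran from 0.288% (SF092_SF326) to 0.807% (SF092_SF342) among hybrids and from 0.105% (SF342) to 0.551% (SF009) among lines, so the ranges overlap.

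The plants with few members on were those in which genes of the opposite kind were still on. The opposite set holds 26 genes chosen by the mirrored rule, with a log2 ratio of −3 or less and a stressed mean under 1 CPM. A median of 25 of the 26 were on in control plants, 6 in stressed line plants and 0 in stressed hybrid plants. SF193 stress replicate 2, with 40 members on, still had 21 of the opposite genes on, and so did SF009_SF326 stress replicate 1, with 65. Over the 72 stressed plants the number of members on and the number of opposite genes on had a Pearson r of −0.90 and a Spearman rho of −0.78, and r was −0.87 without the 2 plants farthest from the median. Within the 24 line plants r was −0.84 and rho −0.81, and within the 48 hybrid plants r was −0.92 and rho −0.59. Without the mismatched libraries r was −0.90 over 70 plants. Plants share genotypes, and 1 contrast chose both sets, so these values only describe. How far the state of the single plants accounts for the gap between hybrids and lines was not tested.

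**Figure D3:**
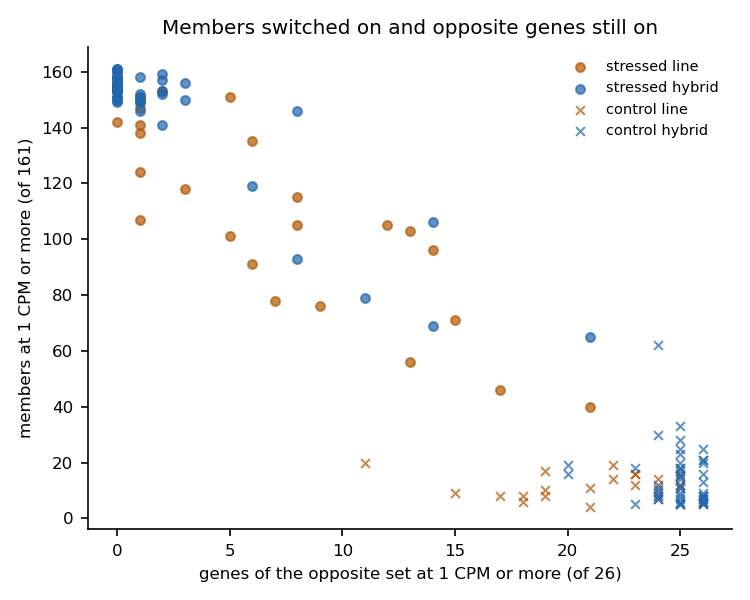
Members at 1 CPM or more (of 161, y axis) against genes of the opposite set at 1 CPM or more (of 26, x axis), 1 point per plant, with dots for stressed and crosses for control plants, lines in orange and hybrids in blue. Most stressed hybrids lie at the top left, stressed lines run down to the right, and 1 control hybrid plant has 62 members and 24 opposite genes on.

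In the plants with the fewest members on, those that were on were mostly those on nearly everywhere. Of the 40 on in SF193 replicate 2, 33 were on in at least 60 of the other 71 stressed plants, as were 88 of all 161 members. Of the 46 on in SF279 replicate 2 it was 43, and of the 56 on in SF193 replicate 1 it was 46.

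Hybrids carried higher levels of the members than lines under stress. The log2 difference between the mean of the 16 hybrids and the mean of the 8 lines, fitted over the 72 stressed libraries, had a median of 1.62 over the members, with quartiles of 1.24 and 2.32 and a range from −0.34 to 4.51; over all 33533 genes tested the median was 0.08, and over the 175 expressed genes that rose it was 1.30. The quasi-likelihood F-test of edgeR, with Benjamini-Hochberg adjustment over all genes, called 141 of the 161 members higher in hybrids, against 27.1% of all genes. It called 0 lower, against 19.6% of all genes; 0 members were lower at an unadjusted p under 0.05, and 0 were called lower by limma voom, DESeq2 or limma-trend. Of the 175 expressed genes that rose, 165 were called higher in hybrids, so the gap was not particular to genes that are silent in watered leaves.

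This count rests on the spread between plants of a genotype. With the 24 genotype means as replicates instead, limma-trend called 123 members higher in hybrids, against 10.8% of all genes. Each hybrid's name joins 2 of the same lines, so these means are not independent replicates, which limma-trend takes them to be. The rule averages over 48 hybrid and 24 line plants and could favour genes that are high in hybrids. Chosen on the line plants alone, the rule gave 118 genes, of which 104 were called higher and 1 lower. Over all genes tested the shares were 27.1% and 19.6%. The 1 lower, HanXRQChr15g0487461, is not a member and was chosen after its values were seen. The comparison was also made in plants that took no part in the choice. This keeps the noise of single plants out of the choice. It cannot answer whether the choice favours hybrids, since each replicate number holds stressed plants of the same hybrids and lines. Chosen on replicate 1 alone and tested in replicates 2 and 3, 124 of 165 genes were higher in hybrids, against 20% of all genes. Chosen on replicate 2 it was 113 of 158, against 15.9%, and chosen on replicate 3 it was 147 of 169, against 25.7%.

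The count was 141 without the mismatched libraries too, against 28.9% of all genes. Of the 20 members not called, 13 had no count in the stressed plants of at least 1 genotype. For 9 of these the SE of the log2 difference was 1198 or more, so their p carries no information; over all other members the SE was at most 2.14. Among the 132 members with counts in every genotype, 125 were called, and the median log2 difference was 1.57. Among the 29 others edgeR called 16 and limma voom 23.

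**Figure D4:**
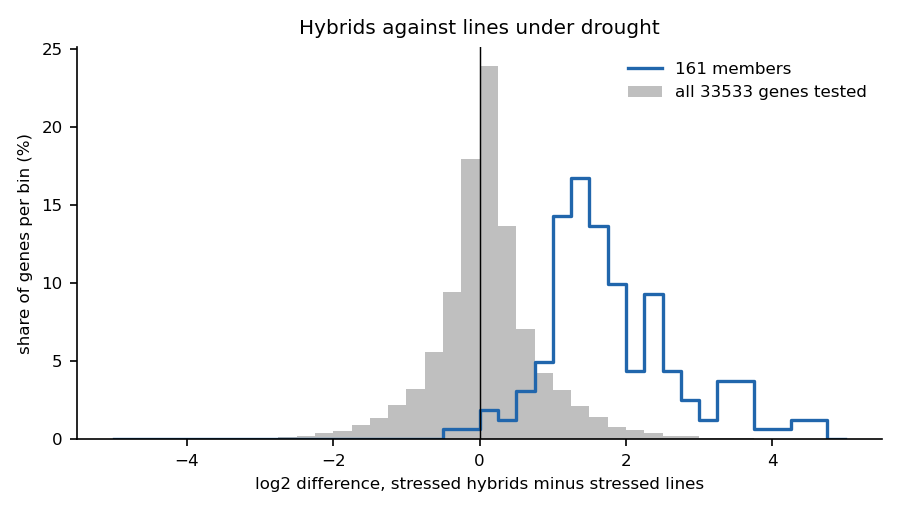
Share of genes (%, y axis) by log2 difference of stressed hybrids minus stressed lines (x axis, bins of 0.25), for all 33533 genes tested (grey bars) and the 161 members (blue line). All genes centre near 0.08 and the members near 1.62, with few members under 0.

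Single members show both the switch and its unevenness. Levels in CPM are not divided by gene length, so their order among members reflects length as well as level. HanXRQChr12g0377231 (chromosome 12, 103781022 to 103802845, plus strand, in the coordinates of the deposited table, whose build is not stated) was on in all 72 stressed plants. In control plants it had a median of 0.222 CPM in lines and 0.231 CPM in hybrids, with a highest value of 14.7. Under stress the line plants ran from 1.14 to 825.2 CPM with a median of 58.0, and the hybrid plants from 8.45 to 969.9 CPM with a median of 265.8. The ranges overlap over most of their length, and the log2 difference of the means was 1.64 ± 0.40 (SE; adjusted p = 0.000651, edgeR). In SF193 the plants were at 4.62, 1.14 and 53.7 CPM, in SF342 at 17.0, 15.2 and 19.9, and in their hybrid SF193_SF342 at 336.4, 271.7 and 464.4, so that every plant of the hybrid stood above every plant of both parents.

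HanXRQChr06g0176521 (chromosome 6, 39122183 to 39125339, plus strand) had the highest mean stressed CPM of the set, not corrected for length. Control plants had at most 9.76 CPM. Under stress the hybrid plants had a median of 319.2 CPM, and all but 1 of the 48 were on; that 1 was the library labelled SF092_SF317 replicate 3, at 0.254 CPM. Line plants ran from 0 to 1308 CPM with a median of 84.3. The 3 plants of SF092 were at 0, 0 and 0.335 CPM, those of SF009 at 270.6, 0 and 0.188, and those of SF326 at 0.116, 0 and 217.0, the last being the library that matched SF092_SF317. In SF092_SF326, a hybrid of 2 of these lines, the plants were at 217.6, 5.48 and 233.7 CPM. The highest line was SF279, at 1308, 24.8 and 354.7 CPM. The log2 difference of hybrids and lines was 2.45 ± 0.57 (SE; adjusted p = 0.000416, edgeR), and 3.67 ± 0.57 without the mismatched libraries.

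HanXRQChr12g0372131 (chromosome 12, 71923936 to 71926108, minus strand) had the largest log2 ratio of the drought contrast, 8.19, and was among the 2 members with the largest gap between hybrids and lines. The median was 0.0391 CPM in control lines and 0.158 CPM in control hybrids. Under stress it was 1.91 CPM in line plants, of which 13 of 24 were on, and 166.5 CPM in hybrid plants, of which 46 of 48 were on. The line mean of 119.0 CPM came mostly from 2 plants, SF009 replicate 3 at 1551 CPM and the library labelled SF326 replicate 3 at 1128 CPM. The log2 difference was 4.50 ± 0.74 (SE; adjusted p = 3.02e-06, edgeR), and 6.33 ± 0.84 without the mismatched libraries, when the line mean was 75.1 CPM.

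HanXRQChr01g0010951 (chromosome 1, 71060407 to 71060874, plus strand) had the largest gap between hybrids and lines, a log2 difference of 4.51 ± 0.85 (SE; adjusted p = 2.61e-05, edgeR), and 5.50 ± 0.88 without the mismatched libraries. It was on in 8 of 24 stressed line plants, with a median of 0.249 CPM, and in 40 of 48 stressed hybrid plants, with a median of 21.6 CPM. Single plants were high in both kinds, up to 503.5 CPM in a plant of SF009 and 502.6 CPM in a plant of SF009_SF342.

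The most even members over the genotypes were HanXRQChr01g0001541 and HanXRQChr15g0487921, with coefficients of variation of the 24 genotype means of 0.368 and 0.398. HanXRQChr01g0001541 had a median of 6.82 CPM in stressed line plants and 5.63 CPM in stressed hybrid plants. Its log2 difference was 0.01 ± 0.21 (SE; adjusted p = 1, edgeR), and it is 1 of 4 members whose hybrid mean was not above the line mean. The other 3, HanXRQChr04g0108391, HanXRQChr05g0138521 and HanXRQChr09g0270611, were named after their values were seen. For HanXRQChr09g0270611 the mean was lower in hybrids, 8.54 against 16.5 CPM, while the log2 difference of the fitted genotype means was 1.26 (adjusted p = 0.0248, edgeR), so the linear and the log scale gave opposite signs. HanXRQChr15g0487921 was on in all 72 stressed plants and in 1 control plant, with medians under stress of 54.8 CPM in lines and 114.4 CPM in hybrids. Its log2 difference was 0.64 ± 0.27 (SE; adjusted p = 0.0479, edgeR), and 0.59 ± 0.28 (adjusted p = 0.0773) without the mismatched libraries.

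The test over all 24 stressed genotypes, which takes in the gap between hybrids and lines, called 124 of 161 members, against 71.3% of all genes, so members stood near the background. With 1 replicate number left out it called 77 to 84. Among the 16 hybrids, the first-named parent had an effect in 48 members, against 38.3% of all genes, and the second-named parent in 57, against 40% of all genes; with 1 replicate number left out it was 28 to 39 and 30 to 39. The combination of the parents had an effect in 5, against 10.7%, with 22 when control plants were fitted too, 9 without the libraries in doubt, 8 without the mismatched libraries and 1 to 5 with 1 replicate number left out. These 5, named after their values were seen, were HanXRQChr01g0006911, HanXRQChr05g0139101, HanXRQChr05g0151041, HanXRQChr16g0529731 and HanXRQChr17g0562961. For the alternative fits of these tests no share over all genes was computed, so their counts only describe the members.

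Some members were on or off by parentage. HanXRQChr03g0067251, with no count under stress in 13 genotypes, the most of any member, was singled out after its values were seen. It was on in all 3 stressed plants of SF009, at 24.0, 42.2 and 15.8 CPM, and in SF193 replicate 3, at 10.5 CPM, with 0.116 and 0 in the other two plants of SF193. No other stressed line plant was above 0.172 CPM. Every hybrid of SF009 and of SF193 had it on, from 12.4 to 50.8 CPM in 23 of 24 plants, the other being SF009_SF326 replicate 1 at 0.454 CPM. All 24 plants of the hybrids of SF092 and SF109 had no count. The effect of the first-named parent among the hybrids had an adjusted p of 8.31e-12 (edgeR).

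HanXRQChr07g0187681 (chromosome 7, 9485863 to 9491238, minus strand) was on under stress in SF279, at 26.6, 2.19 and 22.7 CPM, and in all 12 plants of its 4 hybrids, from 2.48 to 31.5 CPM. SF009 was lower, at 0.885, 8.43 and 1.31 CPM, and its hybrids with SF317, SF326 and SF342 ran from 0 to 8.99 CPM. Outside these genotypes 1 plant, SF109 replicate 2 at 1.90 CPM, was on. No control plant was above 0.196 CPM. Both parents had an effect among the hybrids (adjusted p = 3.84e-08 for the first and 1.21e-13 for the second, edgeR).

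HanXRQChr05g0139101 (chromosome 5, 66099813 to 66142565, minus strand), with the smallest p for differences among genotypes (adjusted p = 1.33e-13, edgeR), did not follow its labelled parents in this way. It was at most 0.365 CPM in the stressed plants of SF279 and SF342 and on in all plants of the other lines but SF009 replicate 2. All 8 hybrids of SF109 and SF193 had it on, from 7.59 to 110.9 CPM. So did SF009_SF279, SF009_SF317 and SF092_SF317. It was at most 0.347 CPM in the other 5 hybrids, and these include SF009_SF326 and SF092_SF326, whose labelled parents both had it on in their stressed means. In SF092_SF326 all 3 plants had 0 counts, while SF092 had 9.44, 4.77 and 29.6 CPM and SF326 had 16.3, 20.2 and 69.4. In control plants SF092_SF326 was at 0.245 CPM and SF009_SF326 at 0, against 0.535 CPM in SF092, 0.455 in SF009 and 1.13 in SF326. The effect of the combination had an adjusted p of 1.48e-08.

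**Figure D5:**
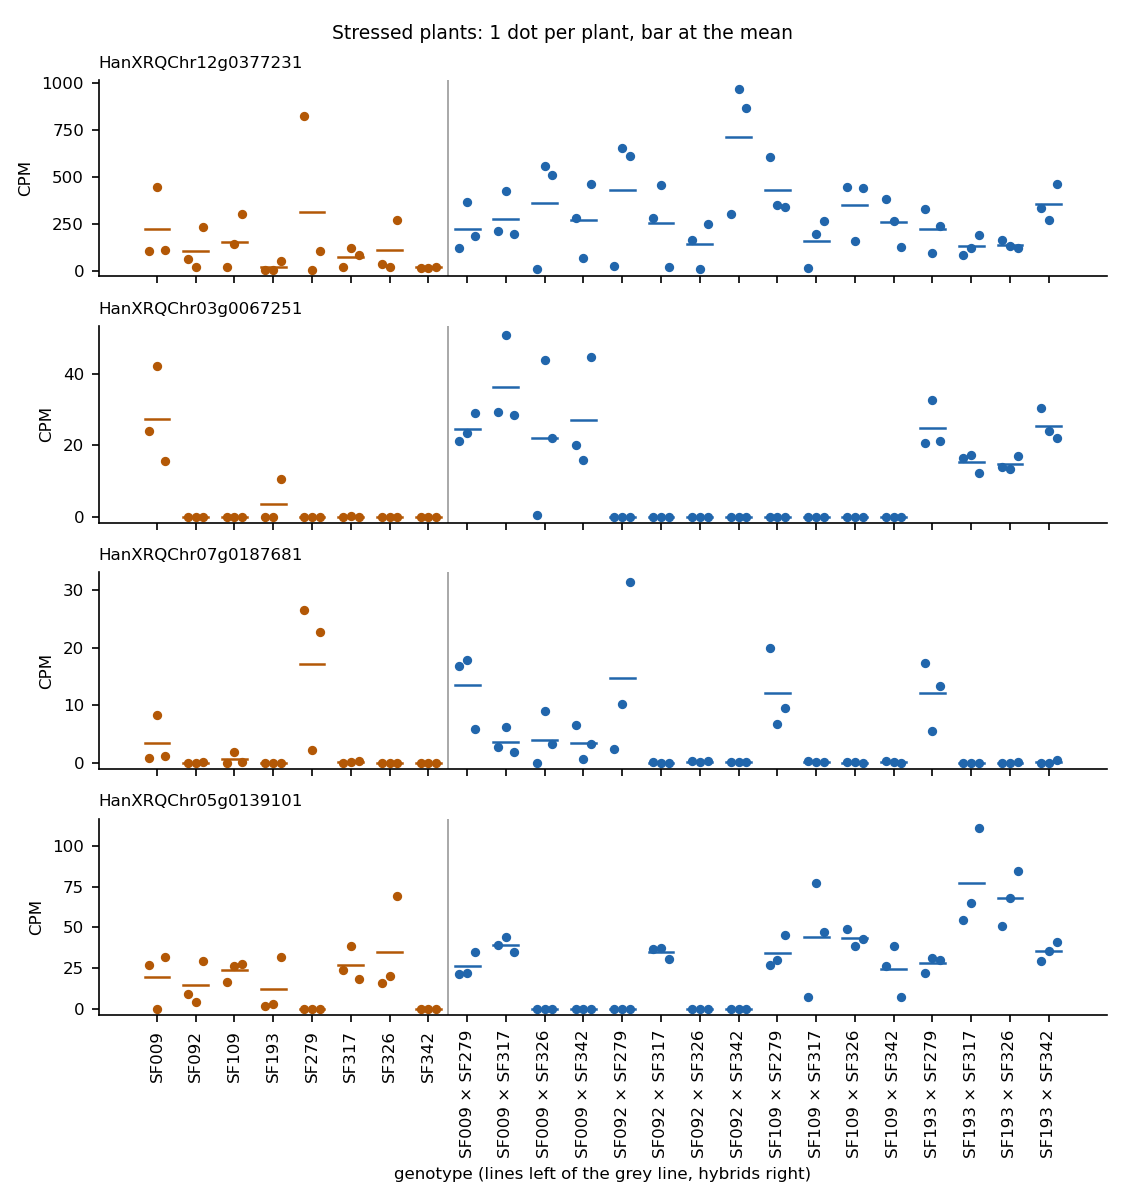
Levels (CPM, y axis, linear) of 4 members in the 72 stressed plants by genotype (x axis, lines in orange, hybrids in blue), 1 dot per plant with a bar at the mean of 3. HanXRQChr12g0377231 is on everywhere and higher in most hybrids, HanXRQChr03g0067251 is on in SF009, 1 plant of SF193 and their hybrids, HanXRQChr07g0187681 in SF279, SF009 and their hybrids, and HanXRQChr05g0139101 is near 0 in 5 hybrids and in SF279 and SF342.

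Over the set, hybrids with 1 silent parent mostly had the member on. There were 100 cases, in 27 members, in which 1 parent of a hybrid had no count under stress and the other a mean of at least 1 CPM. The hybrid mean was at 1 CPM or more in 85 of them, at 0.5 times the expressing parent or more in 73 and above it in 52, with a median ratio of hybrid to expressing parent of 1.04. Without the mismatched libraries there were 121 such cases, 104 of them at 1 CPM or more. In 73 the hybrid was above the expressing parent, and the median ratio was 1.34. The rule could favour this outcome, since its stressed mean holds more hybrid than line plants. On hybrids alone 156 members pass it, against 98 on lines alone. No share over all genes was computed, so these counts only describe the members. In 13 cases, in 6 members, both parents had no count, and the hybrid stayed under 1 CPM in all but 1. That case, found by looking for it, was HanXRQChr16g0499151 in SF092_SF342, at 1.40 CPM.

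The reverse, a hybrid with no count from parents both at 1 CPM or more, occurred in 5 cases, all in hybrids of SF326 with SF009 or SF092. They were named after their values were seen: HanXRQChr05g0139101, HanXRQChr14g0429971 and HanXRQChr14g0429981 in SF092_SF326, and HanXRQChr01g0009081 and HanXRQChr14g0429981 in SF009_SF326. For HanXRQChr01g0009081 the level of SF326 came from the library labelled replicate 3 alone, at 3.27 CPM, with 0 in the other two, and without the mismatched libraries the other 4 cases were left. For HanXRQChr14g0429971 and HanXRQChr14g0429981 the level of SF326 came mostly from replicate 2, at 11.9 and 10.5 CPM. That of SF092 came mostly from replicate 3, at 7.20 and 9.04 CPM. SF009 was at 2.07, 0 and 39.65 CPM for HanXRQChr01g0009081 and at 1.38, 0 and 3.75 CPM for HanXRQChr14g0429981. HanXRQChr01g0009081 also had a mean of 0 CPM in SF009_SF279, SF009_SF317 and SF009_SF342. SF009 and SF092 are the lines in doubt, and whether wrong labels account for these cases was not tested.

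Hybrids were called above both parents mainly in 2 crosses, SF193_SF342 and SF092_SF342. Under stress their parents had the lowest member shares of counts among the lines: 0.105% in SF342, 0.124% in SF193 and 0.134% in SF092. SF193 replicates 1 and 2 had 56 and 40 members on, against up to 62 in a control plant. SF317 followed at 0.1355%, and its hybrids with SF193 and SF092 had 0 members above both parents. Over all 33533 genes tested, 108 were above both in SF193_SF317 and only 2 in SF092_SF317. The 0 in SF092_SF317 therefore carries little information, and its stressed plants include a mismatched library. How far the low parent levels account for the calls was not tested. The rule could also favour calls above both parents, since its stressed mean holds more hybrid than line plants. On lines alone 98 members pass it, against 156 on hybrids alone, so the gaps to all genes given next only describe. In SF193_SF342, 38 members were called above each parent, against 2.72% of all genes, and in SF092_SF342 it was 35, against 2.42%. The median log2 differences were 2.87 to SF193 and 3.21 to SF342 in the first cross, and 2.46 to SF092 in the second. There were 20 members in common, which is 52.6% of the first list and 57.1% of the second; both were set against the same SF342 plants, and SF092 is among the lines in doubt. Over the 16 hybrids the median number of members above both parents was 0, and 61 members were above both in at least 1 hybrid, against 9.23% of all genes and beside 52 of the 175 expressed genes that rose. This count fell to 12, 3 and 35 without replicates 1, 2 and 3, and was 91 without the mismatched libraries. Without the libraries in doubt only the 8 hybrids of SF109 and SF193 have both parents. Over these the count was 82, against 44 with all plants. No share over all genes was computed for these alternatives, so the changes cannot be read as particular to the members.

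In the 4 hybrids of SF009, the line with the most members on, the median log2 difference to SF009 was between −0.21 and 0.33, and no more than 3 members were called above SF009 in any of them. SF009 is among the lines in doubt. Below both parents there were 3 members in at least 1 hybrid, against 12.7% of all genes, and 3 without the mismatched libraries. They were HanXRQChr05g0139101 in SF009_SF326 and SF092_SF326, and HanXRQChr03g0092081 and HanXRQChr05g0138521 in SF092_SF326, named after their values were seen.

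The members were spread over all 17 chromosomes, from 0.149% of the gene models on chromosome 13 to 0.506% on chromosome 6, where 11 of 2175 are members. Chromosome 14 had the most, 16, and 2 members lie on unplaced sequence, HanXRQChr00c0156g0572121 and HanXRQChr00c0452g0574871. By strand, 81 were on the plus strand. Their genomic span, introns included, had a median of 2076 bp against 2484 bp for all gene models. There were 11 members with a member as next neighbour (6.83% of the set, where members are 0.278% of the gene models), in 5 runs.

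The longest run was 3 genes on the minus strand of chromosome 14, HanXRQChr14g0435391 (69328445 to 69330240), HanXRQChr14g0435401 (69335397 to 69337915) and HanXRQChr14g0435411 (69340207 to 69350719). All were at their lowest in SF279, with genotype means of 0.662, 1.48 and 11.9 CPM, and at their highest in SF009_SF317, with 24.7, 16.1 and 168.3 CPM. In the 3 stressed plants of SF279 HanXRQChr14g0435411 was at 17.7, 3.10 and 14.8 CPM, and in those of SF009_SF317 at 153.2, 204.5 and 147.1. The log2 differences of hybrids and lines were 1.29 ± 0.25, 1.18 ± 0.24 and 1.02 ± 0.24 (SE), with adjusted p of 3.17e-05, 9.42e-05 and 0.000578 (edgeR). HanXRQChr14g0435411 was on in all stressed plants and in 14 control plants, the other two in 68 stressed plants each. In the pair HanXRQChr14g0429971 and HanXRQChr14g0429981 the genes follow each other on the plus strand, the first ending at 24155783 and the second starting at 24155834. Reads that run past a gene's end could be counted for such a neighbour; the counting method is not stated in the sources.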

How the data were processed

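Per the labels' protocols, leaf RNA was sequenced from stranded TruSeq libraries as paired Illumina HiSeq reads. The authors deposited a table of raw counts per gene for 70 control and 72 stressed libraries. R 3.3.3 and edgeR 3.16.5 appear in the submitters' processing notes; an aligner, a counting tool and a genome build are not stated in the sources. The deposited filtered table was not used. Of 58050 rows, 17 marked as ribosomal RNA were left out (at most 0.169% of a library). Counts were divided by library totals to give CPM, and the rule was applied with a pseudocount of 0.5 CPM.

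The tests used the 72 stressed libraries, 1 mean per genotype, TMM scaling, filterByExpr (33533 genes, all 161 members) and the quasi-likelihood F-test of edgeR 4.0.16 (R 4.3.3), with Benjamini-Hochberg adjusted p under 0.05 over all genes. A hybrid is above (below) both parents when called higher (lower) against each. Alternatives used limma 3.58.1 and DESeq2 1.42.0. The fit was tested on simulated data. Libraries have no molecular identifiers, so tests rest on the spread between plants, at totals of 2791984 counts or more.

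The members, lists and tests were chosen with earlier results of these data known. Named genes are the 3 members with the highest stressed mean and the 3 with the largest log2 ratio, the genes next to each threshold, the 2 with the largest called gap between hybrids and lines in each direction, the 2 with the smallest p among genotypes, the 2 most even ones and the longest run of neighbours; others are marked where named.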

Additional observations from a re-analysis of the deposited data

How the results depend on the processing

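The rule gave from 112 genes (pseudocount 1 CPM) to 226 (pseudocount 0.25 CPM), 148 with TMM and 147 with RLE scaling, 118 chosen on lines alone (98 of them members) and 185 on hybrids alone (156 of them members). The count of members higher in stressed hybrids ran from 114 (without replicate 2) to 152 (DESeq2) over the fits of the same members. The shares over all genes in these 2 fits were 15.9% and 28.2%. It was 148 by limma voom, 138 with RLE scaling and 139 without the libraries in doubt, against 31.4%, 24.4% and 30.4% of all genes. The alternative without the mismatched libraries was chosen after seeing the data. The count of members lower in hybrids was 0 in each of these fits, against 11.3% (limma-trend) to 22.7% (DESeq2) of all genes. It was 1 among the genes chosen on lines alone.

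Counts of smaller effects depended on the fit. Members above both parents in at least 1 hybrid numbered 36 with no filter on low counts, 113 with control and stressed libraries in one fit and 3 to 35 with 1 replicate number left out; their median over hybrids was 3.5 with control and stressed libraries in one fit, 3 without the mismatched libraries, 0.5 by limma voom and 0 to 1 with a replicate left out. Without the libraries in doubt it was 5.5 over the 8 hybrids with both parents left, against 1.5 over the same hybrids with all plants. Members below both parents numbered 6 with control and stressed libraries in one fit, 0 by limma voom and 1 with any replicate left out; without the libraries in doubt the count was 0, but the crosses with such members have no first parent left in that fit and could not be tested. An effect of the parental combination was called in 22 members with control and stressed libraries in one fit, 9 without the libraries in doubt, 8 without the mismatched libraries and 1 to 5 with a replicate left out. With a replicate left out, the second-named parent had an effect in 30 to 39 members and the first-named parent in 28 to 39. The genotypes differed in 77 to 84, and these fits have fewer plants. No share over all genes was computed for the counts of this paragraph, so they only describe the members.

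Replicate numbers did not pair the plants: deviations of same-numbered plants had a mean correlation of −0.0014 over 828 pairs, against 0.00096 over 1656 pairs of different numbers. With the replicate number as a block, 141 members were higher in hybrids, 0 lower, 121 differed among genotypes, 47 and 53 had an effect of the first-named and second-named parent, 6 of the combination, 66 were above both parents in at least 1 hybrid (median 0 over hybrids) and 2 below (median 0). In that fit 27.1% of all genes were called higher in hybrids and 19.5% lower, and no share was computed for the other counts. Depth limits members near 1 CPM, which is 3.29 counts in the shallowest stressed library.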
